A study of Mus musculus with 2 samples.

Results

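Some small RNAs of mouse testis end in bases that the annotated transcripts they otherwise match do not hold. No genome sequence was searched, so genomic copies and alleles were not told apart from tails. Members were the distinct sequences of 24 to 37 nt that matched no GENCODE M21 transcript over their whole length on either strand, but matched a transcript exactly in sense once their last 1, 2 or 3 bases were left off, with the longest match taken first. There were 848901 such tailed sequences, of 18874917 of these lengths and 22794309 in all. Of them, 424827 were in the Tdrkh-/- library and 471698 in the Tdrkh+/- library, with 47624 in both. They were compared between 1 library from homozygous knockout (Tdrkh-/-) testes and 1 library from heterozygous (Tdrkh+/-) testes, each from 5 pooled pairs of testes taken 11 days after birth. In both genotypes the null allele lacks the Tdrkh start codon, because exons 2 to 4 were excised with EIIa-Cre, a transgene later bred out, on a C57Bl6/129 background. Of the 2 independent lines made, the one behind each library is not stated. The libraries hold size-selected small RNA of whole testis, so fewer germ cells and fewer small RNAs per cell cannot be told apart.

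PIWI-interacting RNAs (piRNAs) are germline small RNAs cut from long precursor transcripts. In mouse, Tdrkh, which has Tudor and KH domains and sits on mitochondria, works with the exonuclease Pnldc1 to trim their 3′ ends, and Henmt1 then methylates the trimmed end. Unmethylated 3′ ends of small RNAs are open to nucleotidyl transferases: Tut4 and Tut7 add U, Tent2 adds A, and Trnt1 adds the CCA end of tRNAs. Tailing is well known on microRNAs, and the tail is read in a library as bases that the gene lacks.

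The sequences below carry the main patterns; lower case marks the part that matches the transcript and capitals mark the added bases, with T standing for U of the RNA.
Mir10b with A: taccctgtagaaccgaatttgtgA
Mir10b with G: taccctgtagaaccgaatttgtgG
Mir125a with G: tccctgagaccctttaacctgtgG
Mir92-1 with AU: tattgcacttgtcccggcctgtAT
Mir92-1 with AA: tattgcacttgtcccggcctgtAA
Mir127 with AU: tcggatccgtctgagcttggctAT
Mir148a with UU: tcagtgcactacagaactttgtTT
Gm38246 with U: tgcaagctcagaacccaacaaacacgtgT
Gm49794 with U: tatgagctctatcgggtttctgaaccctT
Gm37767 with UU: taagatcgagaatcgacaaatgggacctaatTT
Gm9864 with U: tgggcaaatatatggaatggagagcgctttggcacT
Gm10447 with GCC: ttactttgtagaccaggctggccccGCC
Zfp937 with ACC: ttactacttagaacacaggatgtcggcACC
Kdm5d and Gm38246 with UGU: tgcaagctcagaacccaacaaacaTGT
Gm22192 with C: gggagatgaagaggacagtgactgagagaC
mt-Tv with CC: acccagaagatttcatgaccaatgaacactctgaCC
The microRNA members are shown because they can be set against an annotated mature end, the long noncoding and pseudogene members because they carry the added U, the Gm10447, Zfp937 and Kdm5d members because their tails are neither U nor A, and the last pair because they end at the annotated end of a structural RNA.

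On GRCm38, the matching part of each lies in an exon of the named gene. The microRNA parts are at chr2:74726074-74726096 (plus strand, Mir10b), chr17:17830817-17830839 (plus, Mir125a, inside Spaca6), chr14:115044476-115044497 (plus, Mir92-1, inside Mir17hg), chr12:109592888-109592909 (plus, Mir127) and chr6:51269829-51269850 (minus, Mir148a). The noncoding parts are at chr3:51104459-51104486 (plus, Gm38246), chr17:27357417-27357444 (plus, Gm49794), chr1:162087596-162087626 (minus, Gm37767, also in Gm48416) and chr2:107599673-107599707 (minus, Gm9864, also in Gm10040 and Gm48368). In 3′ untranslated regions were chr11:53454917-53454941 (minus, Gm10447), chr2:150240047-150240073 (plus, Zfp937) and chrY:955994-956017 (plus, Kdm5d, a histone demethylase gene of the Y chromosome, with the same bases also in Gm38246). The structural parts are at chr2:32222026-32222054 (plus, the small nucleolar RNA gene Gm22192, with copies in Gm25632 and Gm24920) and chrM:1060-1093 (plus, mt-Tv, the mitochondrial tRNA for valine).

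For the microRNAs, the mature RefSeq sequences (GRCm38.p6) are given with the seed, bases 2 to 8, in capitals, to show where the annotated 3′ end lies.
mmu-miR-10b-5p: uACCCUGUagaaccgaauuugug
mmu-miR-125a-5p: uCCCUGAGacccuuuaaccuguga
mmu-miR-92a-3p: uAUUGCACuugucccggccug
mmu-miR-127-3p: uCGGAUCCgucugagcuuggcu
mmu-miR-148a-3p: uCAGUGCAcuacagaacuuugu
The matching part of the members ended exactly at the annotated mature end for mmu-miR-10b-5p (23 nt), mmu-miR-127-3p (22 nt) and mmu-miR-148a-3p (22 nt). It was 1 base shorter than the 24 nt of mmu-miR-125a-5p and 1 base longer than the 21 nt of mmu-miR-92a-3p. No seed was shared among the 5.

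The Tdrkh-/- library listed 60973266 reads and the Tdrkh+/- library 43172204, with 2482491 and 2355845 of them in microRNA hairpins at 18 to 25 nt, which served as the common scale. Testis microRNAs were present in both: the X-linked Mir470 had 185237 reads in Tdrkh-/- and 126507 in Tdrkh+/-, Mir463 had 880 and 1216, and Mir202, a Sertoli cell marker, had 790 and 668. Of the markers of meiotic germ cells, Mir34c had 119 reads in Tdrkh-/- and 549 in Tdrkh+/-, Mir34b 21 and 43, and Mir449a 48 and 37, and their part in the results was not tested. Of 9 markers of other cell types, Mir375 (endocrine cells) had 153 and 121 reads, Mir133a-1 (striated muscle) 89 and 96, and Mir142 (leukocytes) 51 and 66. Mir206 (striated muscle) had 0 in both, Mir122 (liver) 1 and 0, and the other four between 1 and 43. With 1 library per genotype there was no replicate check and no test, and every interval below is a 95% interval for counting error alone: the reads carry no molecular identifiers, so several may stem from 1 molecule.

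Tailed reads made up 5.83% (5.83 to 5.84, Wilson) of the reads of 24 to 37 nt in Tdrkh-/- and 3.54% (3.53 to 3.54) in Tdrkh+/-. That is 2750696 reads in Tdrkh-/- and 1326038 in Tdrkh+/-. The 47624 members that both libraries list made up 50.99% of the tailed reads in Tdrkh-/- and 37.2% in Tdrkh+/-. Among tailed reads, 57.4% had 1 added base, 26.9% had 2 and 15.7% had 3 in Tdrkh-/-, against 65.4%, 20.9% and 13.7% in Tdrkh+/-. The Tdrkh-/- library thus held relatively more of the longer tails.

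A base that does not match may also come from a reading error or a sequence variant, so the last base was compared with an inner position. The inner count took sequences of the same lengths without an exact match that matched a transcript once their 10th base from the 3′ end was changed. Reads with 1 added base outnumbered these 9.78-fold (9.73 to 9.83, exact conditional binomial interval) in Tdrkh-/- and 8.45-fold (8.39 to 8.50) in Tdrkh+/-. For 2 added bases the excess over inner changes was 4.28-fold in Tdrkh-/- and 2.49-fold in Tdrkh+/-, and for 3 added bases 2.29-fold and 1.52-fold. Within each length class the order for 1 added base was the other way. At 24 to 30 nt the excess was 5.58-fold in Tdrkh-/- and 6.81-fold in Tdrkh+/-, and at 31 to 37 nt it was 12.3-fold and 17.8-fold. The pooled order likewise turned when each distinct sequence counted once, with 4.19-fold in Tdrkh-/- and 5.21-fold in Tdrkh+/-.

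Along the whole sequence the last base stood apart. Per 1000 exactly matching reads, mismatches at the last base numbered 68.8 in Tdrkh-/- and 53.97 in Tdrkh+/-. The median over the 4th to 20th base from the 3′ end was 7.87 in Tdrkh-/-, with a range of 6.99 to 9.24, and 6.28 in Tdrkh+/-, with a range of 5.87 to 8.41. The second base from the 3′ end had 13.9 in Tdrkh-/- and 9.09 in Tdrkh+/-, and the third base 7.89 and 6.34, which lies inside the inner range. Among sequences of 24 to 30 nt, whose 24th base from the 3′ end lies near the 5′ end, mismatches at that base numbered 16.2 in Tdrkh-/- and 15.7 in Tdrkh+/-, above the inner medians of 9.01 and 6.27. Among those of 31 to 37 nt, where the 24th base lies farther from the 5′ end, they numbered 7.71 and 6.47, inside the inner range. At the 30th base from the 3′ end of these longer sequences, mismatches numbered 20.6 in Tdrkh-/- and 28.7 in Tdrkh+/-. The inner medians there were 7.23 and 6.17, and the second base from the 3′ end had 14.2 and 12.3. Both length classes thus had more mismatches near the 5′ end than at inner bases.

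Tailed reads followed the lengths of the small RNAs that matched exactly. Tailed reads of 31 to 37 nt were 4.89-fold (4.87 to 4.91) as many per microRNA read in Tdrkh-/- as in Tdrkh+/-, and those of 24 to 30 nt, the size of mature piRNAs, were 0.689-fold (0.687 to 0.692). Exactly matching sense reads differed likewise, by 5.28-fold at 31 to 37 nt and 0.539-fold at 24 to 30 nt. Set per 100 exact reads, tailed reads of 24 to 30 nt numbered 8.90 in Tdrkh-/- and 6.96 in Tdrkh+/-, so on this scale they were higher in Tdrkh-/- by 1.28-fold. At 31 to 37 nt they numbered 13.6 in Tdrkh-/- and 14.7 in Tdrkh+/-, or 0.926-fold. The gap at 24 to 30 nt lay in the longer tails. Reads with 1 added base numbered 4.49 per 100 exact reads in Tdrkh-/- and 4.50 in Tdrkh+/-, those with 2 numbered 2.43 and 1.43, and those with 3 numbered 1.98 and 1.04.

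The share of a parent that carried 1 added base differed among lengths, with a peak at 26 nt, the lowest value at 28 nt and the highest at 35 nt in Tdrkh-/- and 36 nt in Tdrkh+/-. This share is the reads with 1 added base over those reads plus the exact reads 1 base shorter, with microRNA, mitochondrial and structural hosts left out. It was 3.89% at 24 nt, 5.52% at 26 nt, 3.11% at 28 nt, 5.91% at 31 nt, 9.14% at 35 nt and 7.54% at 37 nt in Tdrkh-/-. In Tdrkh+/- it was 4.13% at 24 nt, 6.59% at 26 nt, 3.69% at 28 nt, 4.99% at 31 nt, 8.04% at 35 nt and 8.20% at 37 nt. The share of the inner mismatch over exact reads lay between 0.380% and 1.25% in Tdrkh-/- and between 0.411% and 1.01% in Tdrkh+/-. Tdrkh-/- was higher at 7 of 14 lengths and lower at 7, with ratios between 0.768 at 25 nt and 1.23 at 30 nt.

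U was the main base added. It made up 66.2% (66.1 to 66.3, Wilson) of single added bases in Tdrkh-/- and 72.8% (72.7 to 72.9) in Tdrkh+/-, against 27.5% and 22.1% of the bases at the inner mismatch. Added U outnumbered inner U 23.6-fold in Tdrkh-/- and 27.8-fold in Tdrkh+/-. Added A made up 19.97% in Tdrkh-/- and 12.5% in Tdrkh+/-, with an excess over inner A of 7.55-fold and 5.26-fold. Added G made up 9.14% in Tdrkh-/- and 9.69% in Tdrkh+/-. Added C was the least frequent, with 4.69% in Tdrkh-/- and 5.05% in Tdrkh+/-, about 2.11-fold and 1.90-fold its inner count.

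The part of U among single added bases differed by length, with the same hosts left out. In Tdrkh-/- U made up 42.6% of added bases at 24 nt, 49.4% at 26 nt, 52.3% at 28 nt, 55.8% at 30 nt, 65.3% at 32 nt, 75.6% at 34 nt and 75.2% at 37 nt. In Tdrkh+/- it made up 36.2% at 24 nt, 47.2% at 26 nt, 72.5% at 28 nt, 84.0% at 30 nt, 87.2% at 32 nt, 87.9% at 34 nt and 75.4% at 37 nt. Tdrkh-/- was lower at 11 of 14 lengths. The ratio to Tdrkh+/- was lowest at 29 nt, at 0.623, with 48.0% against 77.0% in Tdrkh+/-.

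An added base can be seen only where the transcript goes on with another base, and that differed between the libraries. Exact parents were followed by U in the transcript in 55.3% of reads in Tdrkh-/- and 30.8% in Tdrkh+/-, and a U added there reads as an exact match. The share with an added U was therefore taken at parents followed by a given base, leaving out microRNA, mitochondrial and other structural RNAs. At 31 to 37 nt, parents followed by G carried an added U in 14.2% of reads in Tdrkh-/- and 7.79% in Tdrkh+/-. Those followed by A did so in 12.1% in Tdrkh-/- and 8.82% in Tdrkh+/-, and those followed by C in 9.95% and 7.04%. With sequences found in more than 20 genes left out as well, the values were 14.1% and 7.72% before G, 12.5% and 9.05% before A, and 10.5% and 7.16% before C. Pooled over reads at a matched next base, added U was thus more frequent on long parents in the Tdrkh-/- library, while its part among all added bases was lower. At 24 to 30 nt the values lay closer and in no set order: 3.39% in Tdrkh-/- and 4.05% in Tdrkh+/- before G, 4.53% and 4.60% before A, and 5.21% and 4.33% before C.

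Added A was more frequent in Tdrkh-/- at both length classes. Before C, at 24 to 30 nt, it was found on 3.08% of parent reads in Tdrkh-/- and 0.949% in Tdrkh+/-, and before G on 2.14% and 0.858%. On parents that gave 31 to 37 nt it was found before C on 1.87% in Tdrkh-/- and 0.626% in Tdrkh+/-, and before G on 2.22% and 0.794%.

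UU was the most frequent 2-base tail at both length classes, and among 3-base tails UUU was the most frequent at 31 to 37 nt and GCC at 24 to 30 nt. Of reads with 2 added bases, UU made up 48.9% in Tdrkh-/- and 36.7% in Tdrkh+/-, followed by AA with 10.8% and 9.94%. Of reads with 3 added bases, UUU made up 24.2% in Tdrkh-/- and 9.95% in Tdrkh+/-, where GCC was the most frequent with 12.7%, against 7.12% in Tdrkh-/-. At 31 to 37 nt, UU made up 56.9% in Tdrkh-/- and 61.95% in Tdrkh+/-, and UUU 32.7% and 27.8%. At 24 to 30 nt, UU made up 24.6% in Tdrkh-/- and 24.9% in Tdrkh+/-, and UUU 8.20% and 4.29%. Some tails of 2 and 3 bases could also be read as 1 mismatch near the end. Changing a single base restored a transcript match in 42.0% of reads with 2 added bases in Tdrkh-/- and 51.1% in Tdrkh+/-, and in 39.6% and 53.9% of those with 3.

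The hosts of the tailed reads were mainly messenger RNAs. Protein-coding genes gave 64.5% of tailed reads in Tdrkh-/- and 70.4% in Tdrkh+/-, and long noncoding genes 14.4% and 18.4%. Sequences found in more than 20 genes, here called repeats, gave 14.3% in Tdrkh-/- and 3.02% in Tdrkh+/-. MicroRNA hairpins gave 3.46% and 6.16%, pseudogenes 2.77% and 1.44%, other structural RNAs 0.550% and 0.441%, and mitochondrial tRNAs 0.0204% and 0.135%.

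Over all lengths, microRNA tails lay close in level and makeup. Tailed reads of microRNA hairpins numbered 95120 in Tdrkh-/- and 81744 in Tdrkh+/-. That is 1.10-fold (1.09 to 1.11) per microRNA read, beside 0.911-fold for their exact reads of 24 to 37 nt. A led among 1 added base with 47.2% in Tdrkh-/- and 44.0% in Tdrkh+/-, followed by U with 31.5% in both and G with 19.4% and 22.5%. With 2 added bases, AU made up 32.2% in Tdrkh-/- and 35.0% in Tdrkh+/-, AA 30.9% and 31.2%, and UU 18.8% and 20.5%. The few of 31 to 37 nt differed more: they numbered 5256 in Tdrkh-/- and 1419 in Tdrkh+/-, 3.52-fold (3.31 to 3.73) per microRNA read beside 1.81-fold for exact reads. Of their single added bases, 49.7% were U in Tdrkh-/- and 65.5% in Tdrkh+/-, and 42.1% and 22.7% were A. Over all lengths, 1-base tails of microRNAs outnumbered inner mismatches 71.5-fold in Tdrkh-/- and 64.2-fold in Tdrkh+/-, far above the excess over all hosts. The inner count took only sequences of 24 nt or more, while untailed parents may be shorter, so this excess is not comparable among hosts. Per parent read, 1 added base was found on 5.09% in Tdrkh-/- and 5.52% in Tdrkh+/- for microRNAs. For protein-coding hosts it was found on 6.27% and 4.58%.

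Mir10b, a microRNA gene of a Hox cluster, gave the most abundant microRNA member. The 23-nt form with A had 11414 reads in Tdrkh-/- and 10509 in Tdrkh+/-, and the form with G had 4052 and 4727. The untailed 23-nt form had 26912 reads in Tdrkh-/- and 31765 in Tdrkh+/-, and the form with U, which the gene encodes, had 49792 and 45576. The 2 libraries thus held these forms at close levels. Mir125a showed G on its 23-nt form with 2911 reads in Tdrkh-/- and 2832 in Tdrkh+/-, about as many as the untailed form with 2879 and 2735. Its form with A, which the gene encodes and which is the annotated mature length, had more, with 14543 and 10579. Mir92-1, of the Mir17hg cluster, carried AU in 6894 reads in Tdrkh-/- and 6846 in Tdrkh+/-, and AA in 6630 and 6297. Its AAA form had 1936 reads in Tdrkh-/- and 1657 in Tdrkh+/-, beside 13373 and 9793 untailed reads. Mir127, an imprinted microRNA, carried AU in 2505 reads in Tdrkh-/- and 1941 in Tdrkh+/-, and Mir148a carried UU in 1570 and 1631. The Mir148a sequence with UU can also be read as 1 mismatch at the second base from the 3′ end. With that base changed it matches Mir148a and had 1266 reads in Tdrkh-/- and 1630 in Tdrkh+/-. For 11 microRNA hairpins, tailed reads numbered at least 500 in all and exact reads at least 1000 in each library. Of these, 3 had more tailed reads per exact read in Tdrkh-/- (27.3%, against 79.3% of all hosts under the same limits) and 8 had fewer. None differed 2-fold, against 25.6% of all hosts upward and 3.02% downward. The median log2 ratio was -0.10, beside 0.55 over all hosts.

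Mitochondrial tRNA tails were made of the bases of CCA. Of 220 reads with 1 added base in Tdrkh-/-, 217 had C, and 403 of 404 did in Tdrkh+/-. Of reads with 2 added bases, 293 of 297 in Tdrkh-/- and 1276 of 1289 in Tdrkh+/- had CC. Of reads with 3, 43 of 44 in Tdrkh-/- and 89 of 98 in Tdrkh+/- had CCA. The sequence of mt-Tv shown with CC had 29 reads in Tdrkh-/- and 215 in Tdrkh+/-, and its untailed form 0 and 5. Tailed reads of mt-Tv numbered 155 in Tdrkh-/- and 987 in Tdrkh+/-, those of mt-Tk (lysine) 166 and 395, those of mt-Tg (glycine) 157 and 214, and those of mt-Te (glutamate) 64 and 77. In all, tailed reads of mitochondrial tRNAs were 0.297-fold (0.270 to 0.327) as many per microRNA read in Tdrkh-/-, and exact reads 0.274-fold. Tails were seen on 14 of the 22 mitochondrial tRNA genes.

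Mitochondrial messenger and ribosomal RNAs, made in the same organelle, showed few tails. Reads with 1 added base numbered 87 in Tdrkh-/- and 96 in Tdrkh+/-, or 0.923% and 1.11% of parent reads, and only 10 and 24 of them had U. Their excess over inner mismatches was 3.11-fold in Tdrkh-/- and 2.46-fold in Tdrkh+/-. The most abundant members had 7 reads in Tdrkh-/- and 0 in Tdrkh+/- (an A in mt-Co1, a subunit gene of cytochrome c oxidase) and 6 and 0 (a C in mt-Nd5).

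On other structural RNAs, C was the most frequent single added base over all lengths, and 1 sequence held much of it. C made up 57.8% of 9654 reads with 1 added base in Tdrkh-/- and 40.2% of 4268 in Tdrkh+/-, and U 27.4% and 35.5%. At 31 to 37 nt, C made up 45.4% in Tdrkh-/- and 28.1% in Tdrkh+/-, and U 41.5% and 49.9%. The Gm22192 sequence, which ends at the annotated transcript end, had C in 2331 reads in Tdrkh-/- and 872 in Tdrkh+/-, A in 97 and 80, and no untailed read in either library. Rpph1, the RNA of ribonuclease P, had C after its last annotated base in 765 reads in Tdrkh-/- and 109 in Tdrkh+/-, beside 661 and 355 untailed reads. A tail at an annotated transcript end may equally be an end that the annotation sets too short, and this was not tested. Over all hosts, matching parts that ended at a transcript's last base held 0.643% of reads with 1 added base in Tdrkh-/- and 0.599% in Tdrkh+/-. C made up 59.1% of the added bases there in Tdrkh-/- and 44.6% in Tdrkh+/-. Parts that ended more than 3 nt away from transcript ends and exon junctions at every place held 97.2% and 97.7% of these reads, with U at 67.2% and 73.0%.

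Among protein-coding hosts, U made up 66.3% of 1 added base in Tdrkh-/- and 74.6% in Tdrkh+/-, and A 21.5% and 11.7%. Long noncoding hosts had U in 71.3% in Tdrkh-/- and 77.0% in Tdrkh+/-, and pseudogenes in 72.3% and 70.6%. At 31 to 37 nt, tailed reads per microRNA read were 4.21-fold in protein-coding, 4.47-fold in long noncoding and 9.34-fold in pseudogene hosts in Tdrkh-/- over Tdrkh+/-. Exact reads of the same classes differed 4.88-fold, 4.42-fold and 8.07-fold.

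Of the host classes, repeats had the highest ratio of Tdrkh-/- over Tdrkh+/-. Their tailed reads of 31 to 37 nt numbered 327022 in Tdrkh-/- and 18010 in Tdrkh+/-, 17.2-fold (17.0 to 17.5) per microRNA read, beside 15.9-fold for exact reads. UU made up 70.4% of 2-base tails in Tdrkh-/- and 46.0% in Tdrkh+/-, and UUU 52.5% of 3-base tails and 27.6%. A repeat found in 21 genes, among them the pseudogene Gm42927, gave much of this. Its 31-nt form carried UU in 25545 reads in Tdrkh-/- and 62 in Tdrkh+/-, UUU in 14699 and 37, and a single U in 10085 and 56, beside 30348 and 776 untailed reads. Its 33-nt form carried U in 14337 reads in Tdrkh-/- and 506 in Tdrkh+/-, and UU in 20252 and 645, beside 19930 and 1293 untailed. In Tdrkh-/- the UU forms of this repeat therefore came close to or passed the untailed forms. The matching parts end at the same base, after which the annotated copies go on with A or G. Whether a copy absent from those transcripts encodes the U bases was not tested.

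Long noncoding members showed both directions. Gm37767, an uncharacterised transcript that shares this sequence with Gm48416, carried UU on its 31-nt form in 16259 reads in Tdrkh-/- and 21 in Tdrkh+/-. A single U had 9996 reads in Tdrkh-/- and 10 in Tdrkh+/-, and the untailed form 12556 and 37. UUU on this form had 0 reads in both libraries. Whether a genomic copy absent from the transcripts used here encodes the UU was not tested. Gm49794 lay on the other side: its 28-nt form carried U in 43 reads in Tdrkh-/- and 3301 in Tdrkh+/-, UU in 0 and 869, and was untailed in 1 and 199. In Gm49794 the U form thus outnumbered both the untailed form and the form with the encoded G, which had 0 and 342 reads. Gm38246 carried U on its 28-nt form in 3229 reads in Tdrkh-/- and 10346 in Tdrkh+/-, beside 2190 and 12668 untailed reads and 3423 and 1800 with the encoded A. The pseudogene Gm9864 carried U on its 35-nt form in 7176 reads in Tdrkh-/- and 70 in Tdrkh+/-, beside 21857 and 463 untailed reads. A 35-nt sequence in the 3′ untranslated region of Gm42669, shared by 10 genes, carried U in 20540 reads in Tdrkh-/- and 65 in Tdrkh+/-, against 141550 and 258 untailed, so its U form stayed well under the untailed one.

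A few parents carried abundant 3-base tails other than UUU. The 25 nt of Gm10447 with GCC had 16074 reads in Tdrkh-/- and 14084 in Tdrkh+/-, more than any other member with 3 added bases, and the untailed 25 nt, the forms with 1 added base and those with UU, UUU or AA had 0 reads in both. The 26-nt form with GCC had 1924 reads in Tdrkh-/- and 2699 in Tdrkh+/-. Together these members held most of the 30731 GCC reads in Tdrkh-/- and of the 23044 in Tdrkh+/-. Changing any 1 of the added bases of these members restored no transcript match. Zfp937 with ACC had 1050 reads in Tdrkh-/- and 2518 in Tdrkh+/-, with 3 and 5 untailed. The sequence shared by Kdm5d and Gm38246 with UGU had 2157 reads in Tdrkh-/- and 245 in Tdrkh+/-, with 116 and 27 untailed. Both can also be read as 1 mismatch at the third base from the 3′ end. With that base changed, the Zfp937 sequence matches Zfp937 and had 525 reads in Tdrkh-/- and 1342 in Tdrkh+/-. The other then matches Gm38246, in a form with 274969 and 32587 reads. At 27 nt, the length of the UGU member, the share of the inner mismatch over exact reads was 0.707% in Tdrkh-/- and 0.652% in Tdrkh+/-. The UGU reads lay near those shares of the Gm38246 form, and which reading holds was not tested. Members with such 3-base tails may also come from a genomic copy or allele that the transcripts used here do not hold, which was not tested.

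Over all members, the untailed form was listed in the same library for 72.8% of reads with 1 added base in Tdrkh-/- and 67.7% in Tdrkh+/-, for 70.1% and 57.7% with 2, and for 57.7% and 41.2% with 3. It was listed in neither library for 24.05% of reads with 1 added base in Tdrkh-/- and 30.5% in Tdrkh+/-, and for 38.6% and 56.5% with 3. The tailed form exceeded its untailed form in 49.2% of reads with 1 added base in Tdrkh-/- and 51.4% in Tdrkh+/-. For the inner mismatch, the corrected form was listed in the same library for 76.9% of reads in Tdrkh-/- and 79.3% in Tdrkh+/-, and was exceeded in 36.7% and 33.2%.

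The 5′ ends, which tails do not touch, were compared with those of exact reads. With microRNA, mitochondrial and structural hosts left out, reads with 1 added base began with U, a mark of primary piRNAs, in 75% in Tdrkh-/- and 77.3% in Tdrkh+/-, against 74.9% and 80.3% of exact reads. A stood at their 10th base, a mark of secondary piRNAs, in 45.3% in Tdrkh-/- and 36.5% in Tdrkh+/-, against 44.8% and 33.4% of exact reads. Tails of 2 and 3 bases lay farther from the exact reads, in no set order. With 2 added bases, A stood at the 10th base in 43.3% in Tdrkh-/- and 39.98% in Tdrkh+/-, and U at the first in 72.8% and 72.5%. With 3 added bases, A stood at the 10th base in 49.03% in Tdrkh-/- and 46.1% in Tdrkh+/-, and U at the first in 71.5% and 74.4%. The 25 nt of Gm10447 with GCC, which has both, held 16074 of these 415330 reads in Tdrkh-/- and 14084 of 171646 in Tdrkh+/-.

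The same parents could be compared between the libraries where both read them often. With the same hosts left out, 3707 exact sequences of 23 to 36 nt had at least 100 reads in each library, and 1888 of them were followed by U. Pooled, 3.71% of their reads carried 1 added base in Tdrkh-/- and 2.19% in Tdrkh+/-. The median parent had 0.211% in Tdrkh-/- and 0.226% in Tdrkh+/-. Among the 1697 parents whose transcripts do not go on with U, where an added U can be seen, the pooled share was 8.005% in Tdrkh-/- and 3.16% in Tdrkh+/-, and the median parent had 1.05% and 0.920%. Of those 1697 parents, 736 were higher in Tdrkh-/- and 676 lower, with 442 at least 2-fold up and 447 down. At 30 to 36 nt, 358 of them were higher and 304 lower. Pooled, these had 10.4% in Tdrkh-/- and 3.89% in Tdrkh+/-, and their median parent 1.25% and 0.975%. Over all 3707 parents, the share was higher in Tdrkh-/- for 1348 and lower for 1154. The gap reached 2-fold upward in 928 (25% of those compared) and downward in 804 (21.7%). Among the 1748 parents of 30 to 36 nt, 716 were higher and 483 lower, with 4.07% pooled in Tdrkh-/- and 2.35% in Tdrkh+/-. Among the 1959 of 23 to 29 nt, 632 were higher and 671 lower, with 2.82% and 2.13%.

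Counted as sequences, members of 24 to 30 nt were less one-sided than all sequences of that size. Of 6785 members with at least 20 reads over both libraries, 39.9% were 2-fold or more above their Tdrkh+/- level per microRNA read in Tdrkh-/- and 45.1% were 2-fold or more below it, against 20.6% and 65.5% of all 198984 such sequences. Members with an added U lay nearest to the background, with 23.04% higher and 65.1% lower, and those with 3 added bases farthest, with 51.6% and 31.1%. Of 11461 members of 31 to 37 nt, 83.9% were higher and 9.41% lower, near the background of 81.7% and 10.1%.

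Host by host, with lengths of 24 to 37 nt pooled, most genes held more tailed reads per exact read in Tdrkh-/-. Tailed reads per 100 exact reads were more frequent at 31 to 37 nt than at 24 to 30 nt in both libraries. They numbered 13.6 and 8.90 in Tdrkh-/-, and 14.7 and 6.96 in Tdrkh+/-. Exact reads of 31 to 37 nt also made up more of the Tdrkh-/- library, and the part of length in the host ratios was not tested. Reads that match several genes were divided equally among them. Of 828 genes with at least 500 tailed reads in all and 1000 exact reads in each library, 657 had the higher ratio in Tdrkh-/- and 171 in Tdrkh+/-, with a gap of 2-fold or more upward in 212 (25.6%) and downward in 25 (3.02%). The limit on tailed reads favours hosts with high levels in either library, and near-identical genes share reads. Without that limit, 76.6% of 1737 hosts had the higher ratio in Tdrkh-/-, and with reads that match 1 gene alone 78.1% of 1423 did, against 79.3% of the 828. The median host had 9.84 tailed per 100 exact reads in Tdrkh-/- and 6.72 in Tdrkh+/-, and the median log2 ratio was 0.55, with quartiles of 0.10 and 1.02. The median part of U among 1 added base was 66.0% in Tdrkh-/- and 70.2% in Tdrkh+/-.

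Most of the hosts with the most tailed reads had the higher ratio in Tdrkh-/-. D10Wsu102e, a protein-coding gene on chromosome 10, had 51105 tailed reads in Tdrkh-/- and 20065 in Tdrkh+/-, or 11.1 and 6.20 per 100 exact reads. Gm37767 had 42.1 per 100 in Tdrkh-/- and 13.5 in Tdrkh+/-, and Gm48416, which shares most of its reads, 36.1 and 12.8. Gm37158, on the Y chromosome, had 13.9 and 12.8. The neighbouring noncoding genes Gm49794 and Gm10505 on chromosome 17 held 635 and 311 tailed reads in Tdrkh-/-, against 55797 and 26452 in Tdrkh+/-, yet their ratios were alike: 12.8 per 100 exact reads for both in Tdrkh-/-, against 11.0 and 9.70 in Tdrkh+/-. Gm38246 went the other way, with 6.63 per 100 in Tdrkh-/- and 26.3 in Tdrkh+/-, and U made up 48.5% of its single added bases in Tdrkh-/- and 84.9% in Tdrkh+/-.

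The highest ratios of Tdrkh-/- over Tdrkh+/- were in Polr1e, a subunit gene of RNA polymerase I, with 49.6 per 100 exact reads in Tdrkh-/- and 3.79 in Tdrkh+/- (log2 ratio 3.71), then Mms19 (3.18), Tex13b (3.17), Klf13 (2.87) and Tmem164 (2.72). Klf13, a zinc finger transcription factor gene, had 9.66 per 100 in Tdrkh-/- and 1.32 in Tdrkh+/-. The lowest were in Birc5, which encodes the apoptosis inhibitor survivin, with 6.68 per 100 in Tdrkh-/- and 51.8 in Tdrkh+/- (log2 ratio -2.95), then Gm38246 (-1.99), Vmn1r55 (-1.82), Ajuba (-1.55) and Gm5835 (-1.54). In Tex13b and Mms19 tailed reads outnumbered exact reads in Tdrkh-/-, with 230 and 120 per 100, and in Vmn1r55 they did so in Tdrkh+/-, with 128. Tailed reads of such hosts may also come from a genomic copy or allele that the transcripts used here do not hold, which was not tested.

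Gene lists were described by counts. Of 11 histone genes that passed the same limits, 8 (72.7%, against 79.3% of all hosts) had the higher ratio in Tdrkh-/-, 7 of them at least 2-fold (63.6%, against 25.6%), with a median log2 ratio of 1.18 beside 0.55 over all hosts. With no limit on tailed reads and reads that match 1 gene alone, 5 histone genes were left, and 3 were higher, 1 of them at least 2-fold. Most of these were H3 genes with near-identical coding sequences, so their values are not independent: Hist1h3b had 48.3 tailed per 100 exact reads in Tdrkh-/- and 21.1 in Tdrkh+/-, and Hist1h3h 38.5 and 10.9. The linker histone gene Hist1h1d had 9.82 and 17.1. Added bases in histone hosts were U in 90.3% in Tdrkh-/- and 90.6% in Tdrkh+/-. Of 7 ribosomal protein genes, 6 (85.7%) were higher and 1 lower, near the share of all hosts, with a median of 0.26, below that of all hosts, and none 2-fold apart: Rps15 had 32.3 per 100 in Tdrkh-/- and 20.7 in Tdrkh+/-, and Rpl4 5.56 and 8.89. U made up 78.1% of their added bases in Tdrkh-/- and 87.3% in Tdrkh+/-.

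Among 10 abundant hosts of the earlier analysis, 7 were higher and 3 lower, and 7 of 10 lies near the share of all hosts. The gap reached 2-fold upward in 4 (40%, against 25.6% of all hosts) and downward in 1 (10%, against 3.02%). The 3 lower hosts were Gm38246, 1700001L05Rik with 3.65 per 100 exact reads in Tdrkh-/- and 6.004 in Tdrkh+/-, and Fth1, the ferritin heavy chain gene, with 5.10 and 8.20. The 6 hosts whose reads were low in Tdrkh-/- at both lengths had 1036 tailed reads in Tdrkh-/- and 88037 in Tdrkh+/-, and 12.2 and 10.2 per 100 exact reads. The genes of 3′-end enzymes and their cofactors had too few reads of their own for a comparison, with 406 tailed reads in Tdrkh-/- and 447 in Tdrkh+/- over 14 genes, or 9.34 and 9.44 per 100 exact reads.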

How the data were processed

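Small RNAs of 15 to 40 nt from total RNA of testes were made into 1 library per genotype with an Illumina small RNA kit and sequenced on that maker's Genome Analyzer II, per the labels. The authors deposited 1 table per library of raw counts, that is how often each distinct sequence of 18 to 40 nt was read, with 60973266 reads in Tdrkh-/- and 43172204 in Tdrkh+/-. Bowtie and the mouse build mm9 are named in the submitters' processing notes. For adapter trimming, filters and the tool's version, details were not given in the sources used here.

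Exact matches to GENCODE M21 transcripts (GRCm38) were found with a Python 3.11.15 script. It used Numba 0.67.0 and NumPy 2.4.6, and tables and intervals came from pandas 2.3.3 and SciPy 1.17.1. A genome sequence was not used here, so a base called untemplated is one absent from annotated transcripts. Introns, intergenic copies and 129 alleles were not analysed here. The matcher was checked on simulated sequences and against a plain string search on 60 members and 60 other sequences, with 0 that differed. Reads in microRNA hairpins at 18 to 25 nt were the scale between libraries. A host class was set by the annotated genes that hold the matching part, with microRNA, mitochondrial and structural genes before sequences found in more than 20 genes (repeats), then protein-coding, long noncoding and pseudogene hosts. Intervals are at 95%, by Wilson's method for shares and the exact conditional binomial for ratios. No test was run.

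Named sequences are the 5 most abundant members per library with 1, 2 or 3 added bases and the 2 most abundant per host class, and those in repeats and longer ones in untranslated regions are given by values alone. Named hosts are the 10 with the most tailed reads and the 5 highest and 5 lowest ratios. A host that these rules name is not reported here. The members, lists and rules were chosen with earlier results of these data known. Alternatives counted each distinct sequence once, left out sequences read once, microRNA and structural hosts or matching parts near transcript ends, used narrower lengths or other inner positions, and scaled per read listed or per exact read.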

Additional observations from a re-analysis of the deposited data

How the results depend on the processing

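The direction between the libraries depended on the scale. Set per exact sense read of the same lengths instead of per microRNA read, the ratio of tailed reads in Tdrkh-/- over Tdrkh+/- became 1.28 at 24 to 30 nt and 0.926 at 31 to 37 nt, on the other side of 1 from 0.689 and 4.89. All other settings kept both directions. At 24 to 30 nt the ratio was 0.384 with each distinct sequence counted once, 0.784 without sequences read once, 0.649 without microRNA and structural hosts, 0.685 without parts that end near transcript ends or junctions, 0.495 at 26 to 28 nt and 0.514 per read listed. At 31 to 37 nt it was 1.82, 5.84, 4.93 and 4.92 under the same first 4 settings, 7.21 at 33 to 36 nt and 3.65 per read listed. Without repeat hosts, a setting added after seeing the data, it was 0.638 and 4.31.

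The excess of 1 added base over the inner mismatch stayed above 1 in all settings, and its order between libraries did not. It was 4.19 in Tdrkh-/- and 5.21 in Tdrkh+/- with distinct sequences, 12.1 and 12.2 without sequences read once, 9.54 and 8.09 without microRNA and structural hosts, and 9.64 and 8.32 without parts near ends. With the 6th base from the 3′ end as the inner position it was 9.38 in Tdrkh-/- and 9.16 in Tdrkh+/-, and with the 13th from the 5′ end 10.8 and 7.90. The share of U was 51.4% in Tdrkh-/- and 66.3% in Tdrkh+/- with distinct sequences, 68.1% and 76.1% without sequences read once, 67.4% and 74.96% without microRNA and structural hosts, and 67.2% and 73.0% without parts near ends. With members whose untailed form was not listed left out, also added after seeing the data, the excess was 9.26 in Tdrkh-/- and 7.20 in Tdrkh+/-, and the share of U 65.4% and 71.8%. The cause of these differences was not tested. The share of hosts with more tailed reads per exact read in Tdrkh-/- was 76.6% without a limit on tailed reads and 78.1% with reads that match 1 gene alone, both added after seeing the data, against 79.3%. No paired analysis was possible because there was 1 library per genotype. Differences between pools of animals could not be measured, and tails under 24 or over 37 nt, or longer than 3 bases, were not counted.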
